A study of Mus musculus with 24 samples.

Results

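Chemokines are small secreted proteins that call leukocytes into tissue, and the array carried 54 genes of chemokines and chemokine receptors among 20727 named genes. They were taken by name: every gene whose annotated symbol starts with Ccl, Cxcl, Cx3cl, Xcl, Ccr, Cxcr, Cx3cr, Xcr or Ackr followed by a digit, 35 ligands and 19 receptors, with Ackr3 listed under its older name Cxcr7. Where a gene had several array features, its brightest on average stood for it, and 42 of the 54 had only 1 feature. Ackr1, Ackr2 and Ackr4, which meet the naming rule only after older symbols are updated, are given apart at the end of the receptors. Ccl21a was not analysed here.

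A chemokine binds a G protein-coupled receptor on a leukocyte and directs the cell up a gradient of the ligand. Inflammatory chemokines are switched on by injury in epithelium, fibroblasts and macrophages and draw monocytes through Ccr2 and neutrophils through Cxcr2. Homeostatic chemokines such as Ccl19 and Cxcl13 place T and B cells in lymphoid tissue, and similar lymphoid aggregates can form in chronically injured lung.

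All samples were total RNA of whole lung from C57BL/6 mice aged 9 to 12 weeks, given PBS or bleomycin, a drug that breaks DNA, injures the lung and leaves fibrosis. Each was combined with GP Ctrl (the control gapmer), GP DNM3OS-1 (gapmer 1) or GP DNM3OS-3 (gapmer 3), so the controls carried a gapmer too. Gapmer values below are those of bleomycin mice unless PBS mice are named. Gapmers are short antisense oligonucleotides that lead to cleavage of the RNA they pair with, here the long noncoding RNA Dnm3os. There were 3 arrays per PBS group and 5 per bleomycin group, every one a 1-colour Agilent array of 1 sample. The sources used here do not give dose, route, time after bleomycin or sex. The labels do not tie a sample to an animal either, so the p-values reflect the spread among these samples, which may be technical.

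Values are log2 intensities between 5.03 and 18.25, with precision limited by how many arrays there are. The 10 lung identity markers had summed levels between 19.38 and 19.72 on every array. The summed level of 11 skeletal muscle markers varied far more, from 10.92 to 17.18. It was 15.90 to 17.03 in PBS controls and 14.73 to 15.03 in bleomycin controls. In bleomycin mice it was 15.37 to 15.96 with gapmer 1 and 14.63 to 17.18 with gapmer 3. The bearing of this on the chemokine levels was not tested. The level of Dnm3os was 6.64, 6.84, 6.93, 7.03 and 7.05 in bleomycin controls, 5.99, 6.08, 6.12, 6.24 and 6.48 with gapmer 1 and 6.26, 6.26, 6.29, 6.42 and 6.78 with gapmer 3, against 6.27, 6.37 and 6.39 in PBS controls. It was lower by 0.72 and 0.50 with the gapmers (limma adjusted p = 0.000186 and 0.00293). In PBS mice it read 5.76, 5.85 and 6.06 with gapmer 1 and 5.95, 6.12 and 6.22 with gapmer 3, where it differed by -0.45 and -0.25, and neither difference passed (limma adjusted p = 0.0882 and 0.577). The sizes of these Dnm3os differences are uncertain, since all 3 gapmer 1 readings in PBS mice, the lowest gapmer 3 reading there and 2 gapmer 1 readings in bleomycin mice fell short of 6.11. That is the 25th percentile of the mean levels of all genes, and levels below it are taken here as not resolved. Bleomycin control replicate 3 stood apart, with some thymocyte genes at levels seen on no other array: Rag1, a recombinase of developing lymphocytes, was at 10.22 there and at 5.45 to 6.04 on the other 23 arrays, and Dntt, which adds bases to receptor gene joints, at 11.56 against 6.66 to 7.44. Of the other thymus genes listed, Ptcra, Themis and Psmb11 were highest there too. Rag2 (5.93, others 5.50 to 6.01), Foxn1 and Cd1d1 lay within the range of the other arrays. The Ccr9 ligand Ccl25, which the thymus makes, and Ccr9 itself were highest on the same array, at 10.96 and 10.09. The main counts of members, and the marker counts that changed, are therefore also given without this array.

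Bleomycin raised 35 of the 54 genes and lowered 2 under the control gapmer, and in bleomycin mice 26 of the 54 were lower with each gapmer than with the control gapmer. The largest differences with bleomycin and with gapmer 1 were those of Ccl2, a monocyte attractant, and Cxcl5, a neutrophil attractant: Ccl2 was 8.35-fold higher with bleomycin and Cxcl5 5.79-fold, and with gapmer 1 the level of Cxcl5 was 4.57-fold lower. The lowest PBS control of Cxcl5 lay just under 6.11, so the size of its rise is uncertain. A gene is called here when limma gave an adjusted p under 0.05 over all 20727 genes. In the bleomycin comparison 33.8% of all genes were called, 14.5% higher and 19.3% lower, and the median difference of the 54 was 0.53 beside -0.02 over all genes. Among ligands 23 of 35 rose and 2 fell, and among receptors 12 of 19 rose and none fell. Every bleomycin array lay above every PBS array for 34 of the 54 and below for 2, against 15.1% and 18.2% of all genes. In bulk lung, fewer cells of a type and less RNA per cell cannot be told apart.

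In bleomycin mice gapmer 1 lowered 26 of the 54 genes and raised 1, where 10.5% of all genes were called, 5.08% lower and 5.47% higher. Gapmer 3 lowered 26 and raised 2, where 13.2% of all genes were called, 7.52% lower and 5.63% higher. The median differences of the 54 were -0.38 and -0.39. Both comparisons use the same 5 bleomycin control arrays, so their values are given side by side and not as independent repeats. The bleomycin comparison uses these arrays too, with the opposite sign. High readings on them alone would give a rise with bleomycin and a fall with each gapmer, so rises and falls of a gene are not separate evidence. The gapmer 1 arrays all lay below the control arrays for 16 members (3.41% of all genes) and above them for none (2.87%). The gapmer 3 arrays all lay below for 28 members (8.03% of all genes) and above for 2 (4.83%). The mean level of the 54 genes, as a difference from the PBS control mean, was 0.658 to 0.912 on the bleomycin control arrays, 0.200 to 0.554 with gapmer 1 and 0.141 to 0.359 with gapmer 3. The bleomycin control group had the highest of the 6 group means in 41 of the 54 genes. The share of all genes with this order was not taken, so the count describes the members only. Without bleomycin control replicate 3, 35 members rose and 2 fell with bleomycin, 22 were lower and 1 higher with gapmer 1, and 25 were lower and 1 higher with gapmer 3. Of the ligands 24 then rose and 2 fell, and 18 and 20 were lower with the gapmers, while of the receptors 11 rose and 4 and 5 were lower. Without it all bleomycin arrays lay above the PBS arrays for 36 members (17% of all genes), and all gapmer arrays lay below the control arrays for 19 members with gapmer 1 (4.38%) and 29 with gapmer 3 (9.97%). The bleomycin control mean was then the highest in 40 of the 54. Among the counts by role given below, the array moved that of the CC receptors lower with gapmer 1 from 4 to 2 and no other count by more than 1.

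**Figure D1:**
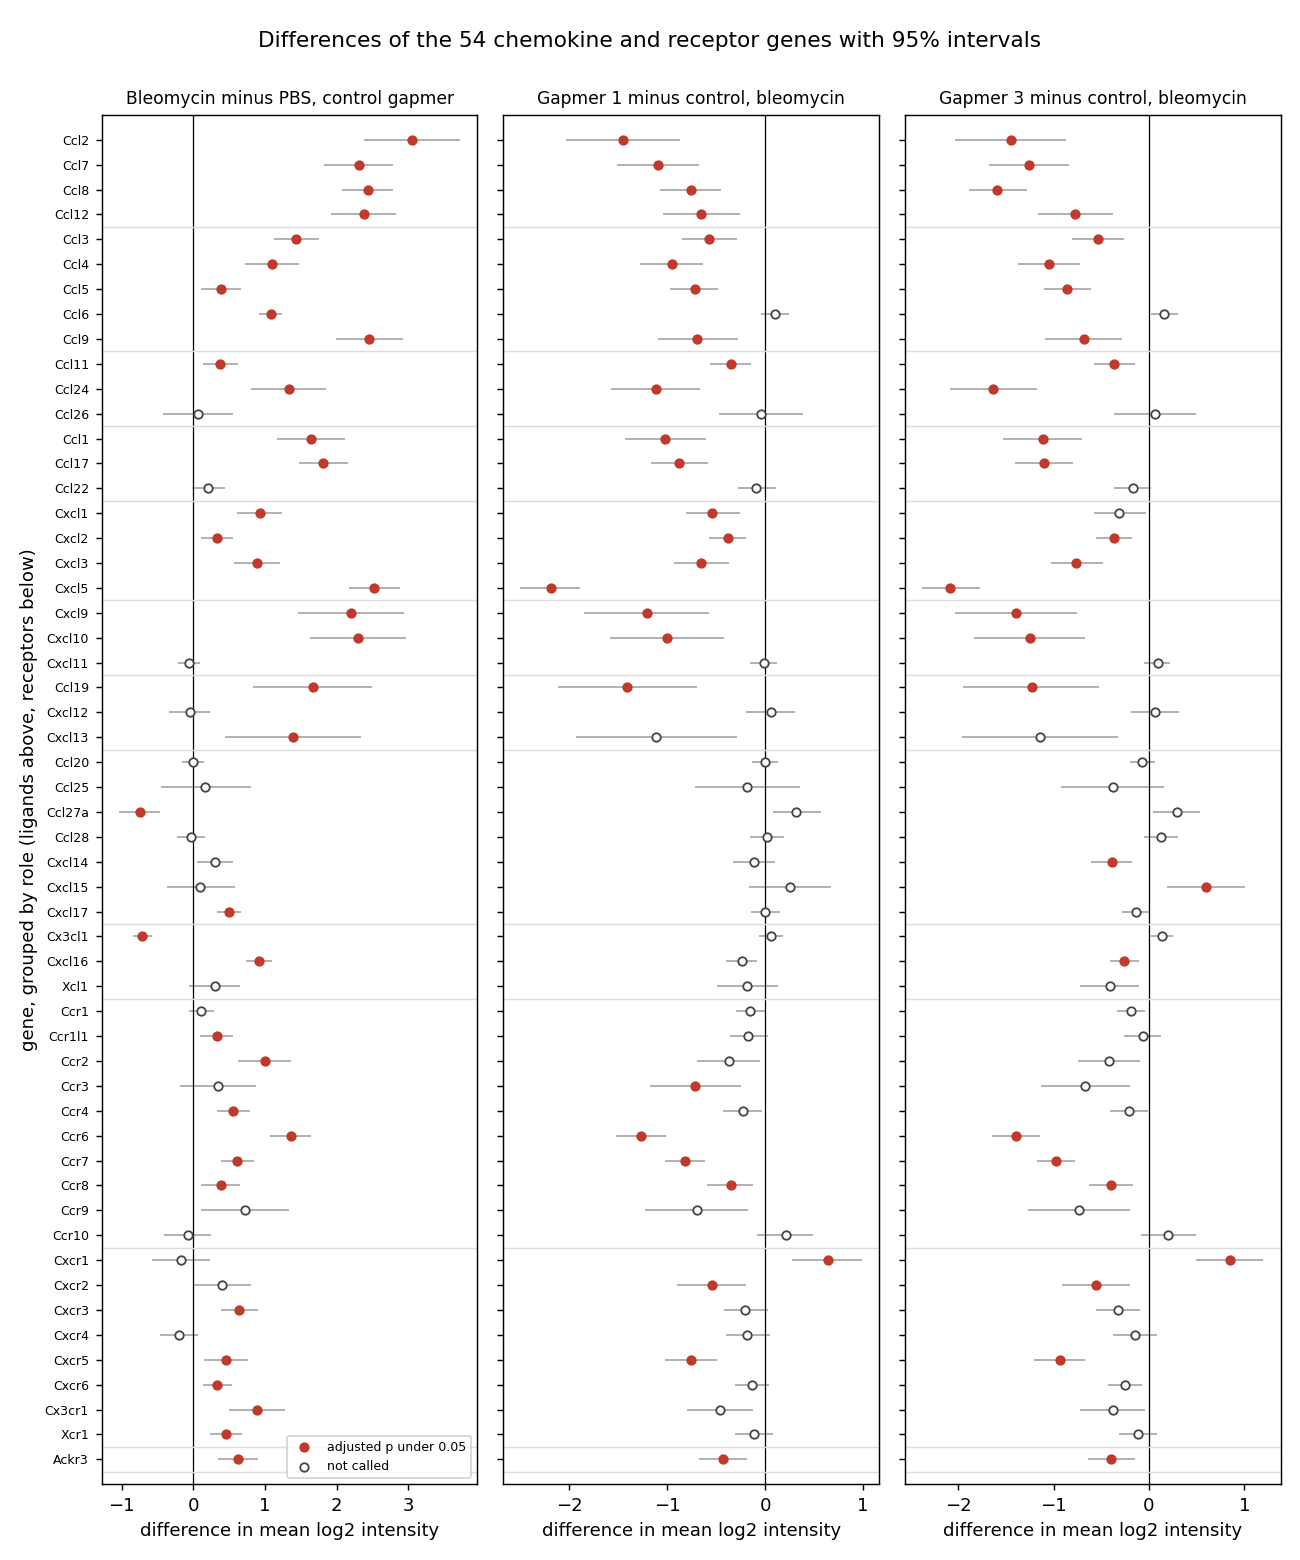
Difference in mean log2 intensity of each of the 54 genes (rows, ordered by role, ligands above receptors) for bleomycin against PBS under the control gapmer and for gapmer 1 and gapmer 3 against control in bleomycin mice. Bars are 95% intervals of the limma fit and filled points have an adjusted p under 0.05: in the first panel 35 filled points lie right of 0 and 2 left, and in the gapmer panels 26 filled points lie left in each.

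The 4 monocyte chemoattractant proteins, Ccl2, Ccl7, Ccl8 and Ccl12, all rose with bleomycin and were all lower with both gapmers. Ccl2, the main ligand of Ccr2 and a signal that releases monocytes from bone marrow, read 8.05, 8.09 and 8.14 in PBS controls and 10.49, 11.10, 11.22, 11.46 and 11.49 in bleomycin controls. With gapmer 1 its levels in bleomycin mice were 8.88, 9.13, 9.82, 9.86 and 10.82, and with gapmer 3 9.00, 9.75, 9.86, 9.91 and 10.01. All bleomycin controls stood above all PBS arrays, 4 of the 5 gapmer 1 arrays and all gapmer 3 arrays stood below the lowest bleomycin control, and no gapmer array of the bleomycin groups fell back into the PBS control range. The rise was 3.06 (SE 0.32, limma adjusted p = 3.07e-07) and the differences with gapmers 1 and 3 were -1.45 and -1.45 (SE 0.28 in both, limma adjusted p = 0.00196 and 0.00132). Ccl2 had 10 features on the array, and their rises ran from 2.81 to 3.22.

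Ccl8, which in mice also binds Ccr8, differed most between the gapmers. Its levels were 10.54, 10.75 and 10.83 in PBS controls, 12.95 to 13.33 (median 13.13) in the 5 bleomycin controls, 12.03, 12.11, 12.17, 12.69 and 12.90 with gapmer 1 and 11.41, 11.46, 11.54, 11.67 and 11.71 with gapmer 3. The 4 sets of arrays did not overlap, with the order PBS control, gapmer 3, gapmer 1 and bleomycin control. Bleomycin raised Ccl8 by 2.44 (limma adjusted p = 1.62e-09), gapmer 1 lowered it by 0.76 (limma adjusted p = 0.00213) and gapmer 3 by 1.59 (limma adjusted p = 4.06e-07). The direct difference, gapmer 3 minus gapmer 1, was -0.82 (95% interval -1.13 to -0.51) and did not pass over all genes (limma adjusted p = 0.284, unadjusted p = 1.58e-05). In PBS mice Ccl8 with gapmer 1 read 11.16, 11.45 and 11.55, every array above the PBS controls, and this difference of 0.68 did not pass either (limma adjusted p = 0.0725).

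Ccl7, a ligand of Ccr1, Ccr2 and Ccr3, read 7.54, 7.60 and 7.77 in PBS controls and 9.60, 9.85, 9.95, 10.03 and 10.28 in bleomycin controls, a rise of 2.31 (SE 0.23). In gapmer 1 lungs Ccl7 read 8.29, 8.39, 8.90, 9.02 and 9.68 and in gapmer 3 lungs 8.30, 8.66, 8.66, 8.71 and 9.09, lower by 1.09 and 1.26 (limma adjusted p = 0.00144 and 0.000248). Only the highest gapmer 1 array of Ccl7 overlapped the bleomycin controls. Ccl12, another mouse ligand of Ccr2, read 7.89, 8.01 and 8.03 in PBS controls and 10.05, 10.32, 10.44, 10.45 and 10.50 in bleomycin controls, a rise of 2.38 (SE 0.22). Its levels were 9.10, 9.30, 9.57, 10.05 and 10.49 with gapmer 1 and 9.13, 9.49, 9.66, 9.70 and 9.94 with gapmer 3, differences of -0.65 and -0.77 (limma adjusted p = 0.0281 and 0.00788). The highest gapmer 1 array of Ccl12 lay within the bleomycin control range, and all gapmer 3 arrays lay below it. Ccl12 lost its gapmer 1 call without bleomycin control replicate 1, 2, 3 or 4 or gapmer 1 replicate 1, 2 or 3 (difference -0.66 to -0.50, adjusted p = 0.0515 to 0.0986) and with only the compared groups in the fit (-0.65, adjusted p = 0.115).

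Of 13 markers of monocyte-derived macrophages 12 rose with bleomycin, and 5 were lower with gapmer 1 and 3 with gapmer 3, where 1 was higher. Their summed level ran from 17.32 to 17.38 in PBS controls, 18.18 to 18.31 in bleomycin controls, 18.10 to 18.25 with gapmer 1 and 18.05 to 18.27 with gapmer 3. The 6 monocyte markers, which include Ccr2, had 3 higher with bleomycin, and 1 and 2 lower with the gapmers, with summed levels of 16.73 to 16.84, 16.91 to 17.04, 16.89 to 17.17 and 16.91 to 17.06 in the same order. Without bleomycin control replicate 3, 12 macrophage markers rose, 4 and 3 were lower with the gapmers and none was higher, and 2 monocyte markers rose. The part of these cells in the levels of the chemokines was not tested.

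Among the 5 inflammatory CC chemokines Ccl3, Ccl4, Ccl5, Ccl6 and Ccl9, all rose with bleomycin, 4 were lower with each gapmer, and Ccl6 was not. Ccl9, a mouse ligand of Ccr1, read 10.40, 10.53 and 10.91 in PBS controls and 12.86, 12.91, 13.11, 13.22 and 13.25 in bleomycin controls, 5.5-fold higher (log2 2.46, SE 0.23). Under gapmer 1 Ccl9 read 11.87, 12.08, 12.10, 12.49 and 13.36 and under gapmer 3 11.97, 12.36, 12.46, 12.50 and 12.62 (differences -0.69 and -0.68, limma adjusted p = 0.0264 and 0.0225). The highest gapmer 1 array exceeded every bleomycin control, while all gapmer 3 arrays lay below them. Ccl9 lost its gapmer 1 call without bleomycin control replicate 1, 2 or 4 or gapmer 1 replicate 2, 3 or 5 (difference -0.68 to -0.56, adjusted p = 0.0557 to 0.0914) and with only the compared groups in the fit (-0.69, adjusted p = 0.11). Ccl9 lost its gapmer 3 call without bleomycin control replicate 1 or 2 or gapmer 3 replicate 3 (difference -0.65 to -0.58, adjusted p = 0.0541 to 0.077).

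Ccl6, a mouse ligand of Ccr1 made by macrophages, rose from 14.11, 14.24 and 14.31 in PBS controls to 15.19, 15.25, 15.27, 15.34 and 15.45 in bleomycin controls (1.08, SE 0.08, limma adjusted p = 2.23e-09). In bleomycin mice it read 15.35, 15.36, 15.40, 15.44 and 15.47 with gapmer 1 and 15.32, 15.44, 15.45, 15.48 and 15.59 with gapmer 3, with differences of 0.10 (95% interval -0.04 to 0.24) and 0.16 (0.02 to 0.30) that did not pass. Ccl6 was also the single member called in PBS mice, where it read 14.51, 14.65 and 14.85 with gapmer 1 against 14.11, 14.24 and 14.31 in controls (0.45, limma adjusted p = 0.021). That call was lost without PBS control replicate 1 or 3 or PBS gapmer 1 replicate 1 or 3.

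Ccl3 and Ccl4, macrophage inflammatory proteins that attract monocytes and T cells, rose with bleomycin and were lower with both gapmers. Ccl3 read 7.33, 7.48 and 7.98 in PBS controls, 8.97, 9.00, 9.01, 9.03 and 9.15 in bleomycin controls, 8.17, 8.37, 8.41, 8.60 and 8.76 with gapmer 1 and 7.99, 8.49, 8.65, 8.67 and 8.70 with gapmer 3. Its rise was 1.44 and its falls were 0.57 and 0.53 (limma adjusted p = 3.58e-07, 0.00772 and 0.00939), and neither gapmer group overlapped the bleomycin controls. Ccl4 read 8.33, 8.49 and 8.89 in PBS controls and 9.43, 9.61, 9.71, 9.75 and 9.83 in bleomycin controls, then 8.51, 8.55, 8.74, 8.80 and 8.97 with gapmer 1 and 8.06, 8.69, 8.69, 8.79 and 8.87 with gapmer 3. For Ccl4 the gapmer arrays lay in the range of the PBS controls or near it, with differences from bleomycin controls of -0.95 and -1.05 (limma adjusted p = 0.000517 and 0.00012). Ccl5, a T cell and monocyte attractant, rose by 0.39 with bleomycin (limma adjusted p = 0.0312) but fell by 0.72 and 0.86 with the gapmers (limma adjusted p = 0.000498 and 5.16e-05), to 13.01 ± 0.12 and 12.87 ± 0.19 (SD, n = 5), below the PBS control mean of 13.34 ± 0.27 (SD, n = 3). Ccl5 lost its bleomycin call without bleomycin control replicate 1 or 2 or PBS control replicate 1 or 2 (difference 0.25 to 0.39, adjusted p = 0.0527 to 0.213).

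**Figure D2:**
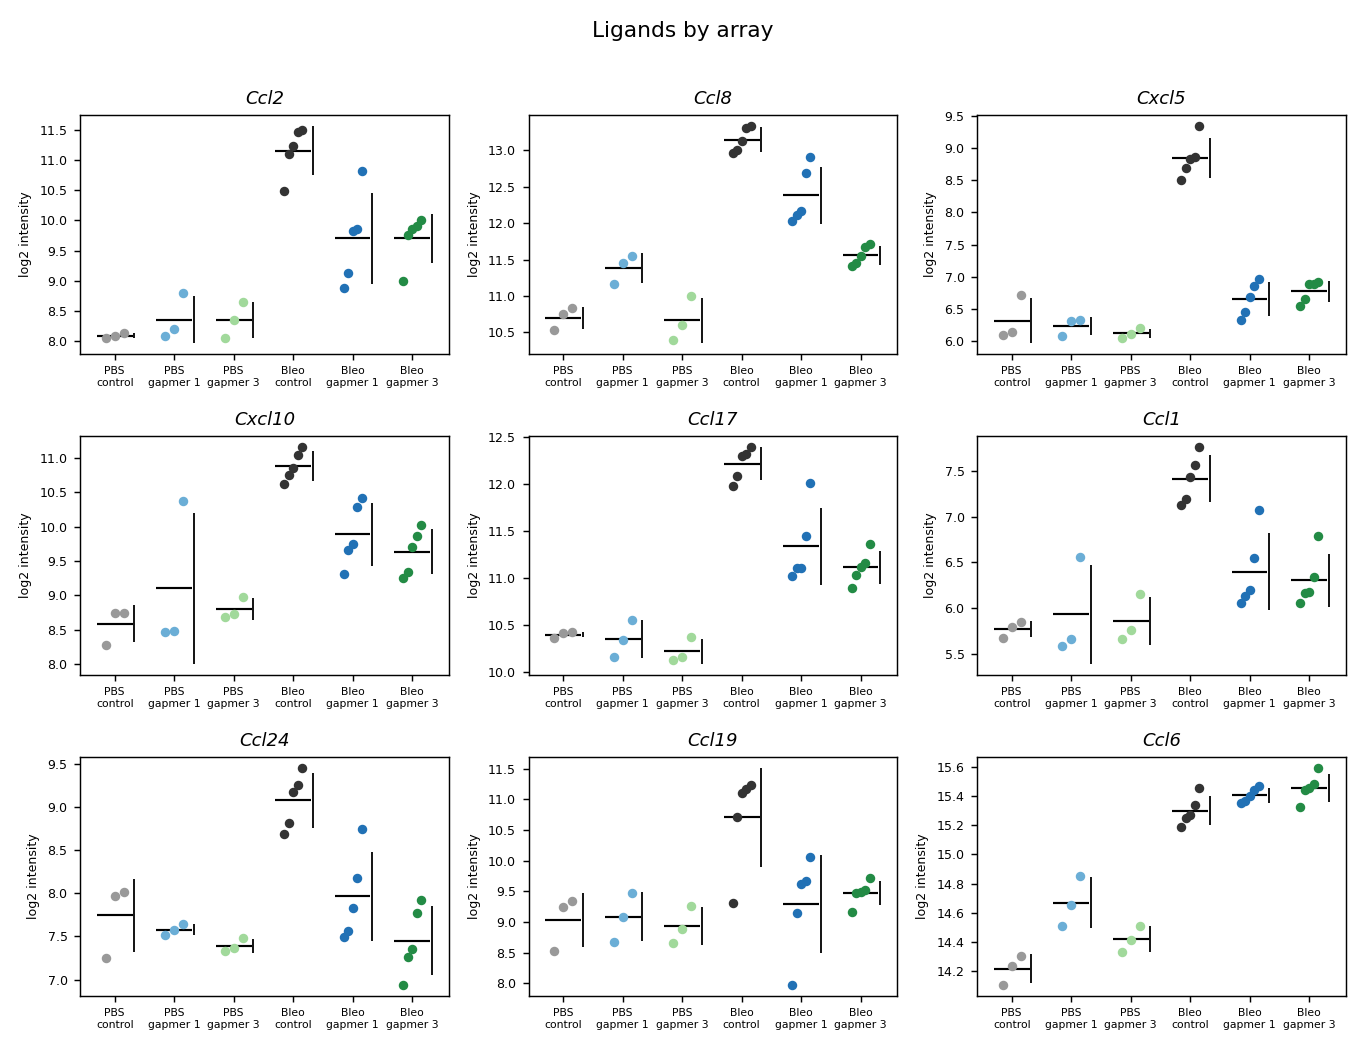
Log2 intensity (y axis) of 9 ligands on each array, in the 6 groups along the x axis, with the group mean as a horizontal line and the SD as a vertical bar (n = 3 for PBS and 5 for bleomycin groups). Cxcl5 is at 8.51 or above on the bleomycin control arrays and at 6.96 or below on all others, the gapmer 3 arrays of Ccl8 lie below those of gapmer 1 in bleomycin mice, and Ccl6 stays at 15.19 or above in all bleomycin groups.

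Of the 3 eotaxins, which act through Ccr3 on eosinophils, Ccl24 moved most. It read 7.25, 7.97 and 8.01 in PBS controls and 8.69, 8.81, 9.17, 9.26 and 9.45 in bleomycin controls, a rise of 1.33 (SE 0.25, limma adjusted p = 0.000263). With gapmer 1 it read 7.50, 7.56, 7.83, 8.18 and 8.75 and with gapmer 3 6.94, 7.26, 7.36, 7.77 and 7.93, lower by 1.11 and 1.63 (limma adjusted p = 0.00225 and 4.12e-05). All gapmer 3 arrays of Ccl24 lay below the highest PBS control, and 1 gapmer 1 array reached the bleomycin controls. Ccl11 followed with smaller differences, 0.37, -0.35 and -0.37 (limma adjusted p = 0.0177, 0.031 and 0.0202). Ccl11 lost its bleomycin call without PBS control replicate 1 (difference 0.28, adjusted p = 0.123) and with the RNA integrity number as a covariate (0.31, adjusted p = 0.058). Ccl11 lost its gapmer 1 call without bleomycin control replicate 1, 2 or 4 or gapmer 1 replicate 1, 2 or 3 (difference -0.36 to -0.26, adjusted p = 0.0547 to 0.106) and with only the compared groups in the fit (-0.35, adjusted p = 0.0843). Ccl11 lost its gapmer 3 call without bleomycin control replicate 2 or gapmer 3 replicate 5 (difference -0.33 to -0.32, adjusted p = 0.0595 to 0.0672). Ccl26 had a mean under 6.11 and was not called. Of 6 eosinophil markers 1 was higher and 2 lower with bleomycin, with summed levels of 11.41 to 11.48 in PBS controls and 10.80 to 11.27 in bleomycin controls, 11.07 to 11.27 with gapmer 1 and 10.82 to 11.24 with gapmer 3.

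Ccl17 and Ccl1 draw regulatory and other helper T cells through Ccr4 and Ccr8. Ccl17, made by dendritic cells, read 10.36, 10.41 and 10.42 in PBS controls and 11.98, 12.08, 12.30, 12.31 and 12.39 in bleomycin controls, a rise of 1.81 (SE 0.16, limma adjusted p = 4.94e-08). It read 11.03, 11.10, 11.11, 11.44 and 12.01 with gapmer 1 and 10.90, 11.03, 11.11, 11.16 and 11.36 with gapmer 3, lower by 0.88 and 1.10 (limma adjusted p = 0.000483 and 2.92e-05), and 1 gapmer 1 array reached the bleomycin controls. Ccl1, the ligand of Ccr8, read 5.67, 5.80 and 5.84 in PBS controls and 7.13, 7.20, 7.43, 7.56 and 7.76 in bleomycin controls. Under gapmers 1 and 3 it read 6.06, 6.13, 6.20, 6.55 and 7.07 and 6.06, 6.16, 6.17, 6.34 and 6.79, below every bleomycin control in both groups. Ccl1 rose by 1.65 and fell by 1.02 and 1.11 (limma adjusted p = 9.04e-06, 0.00221 and 0.000669). The PBS control mean of Ccl1 lay under 6.11, so its rise is not fully resolved. Ccl22, the other Ccr4 ligand, had a mean under 6.11 too and was not called. Ccl22 passed in the bleomycin comparison with array weights (0.27, adjusted p = 0.0375).

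The 4 neutrophil attractants Cxcl1, Cxcl2, Cxcl3 and Cxcl5, which act through Cxcr2, all rose with bleomycin, all 4 were lower with gapmer 1, and 3 with gapmer 3. Cxcl5, which lung epithelium makes, read 6.10, 6.14 and 6.72 in PBS controls and 8.51, 8.69, 8.84, 8.87 and 9.34 in bleomycin controls. With gapmer 1 it read 6.32, 6.46, 6.69, 6.86 and 6.96 and with gapmer 3 6.54, 6.66, 6.88, 6.88 and 6.91. All 10 gapmer arrays lay below the bleomycin controls, and they overlapped the PBS controls, 5 of them lying above the highest. Cxcl5 rose by 2.53 (SE 0.17, limma adjusted p = 6.7e-10) and then fell by 2.19 and 2.08 under gapmers 1 and 3 (SE 0.15 for both, limma adjusted p = 1.87e-09 and 4.46e-09). Its falls were the largest of the 54 genes in both gapmer comparisons.

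Cxcl1, an early signal for neutrophils, rose by 0.93 and fell by 0.54 with gapmer 1 (limma adjusted p = 6.22e-05 and 0.0112), while its difference of -0.31 with gapmer 3 did not pass (limma adjusted p = 0.14). Cxcl1 passed in the gapmer 3 comparison without gapmer 3 replicate 2 (difference -0.40, adjusted p = 0.0465) and with array weights (-0.37, adjusted p = 0.0218). Cxcl3 rose by 0.89 and fell by 0.65 and 0.76 (limma adjusted p = 9.61e-05, 0.00319 and 0.000583). Cxcl2 differed less, by 0.33, -0.38 and -0.37 (limma adjusted p = 0.0196, 0.0102 and 0.00866). PBS control means of Cxcl2 and Cxcl3, 5.89 and 5.80, lay under 6.11. Their means over all arrays, 5.89 and 6.03, did too, so neither their rises nor their falls are fully resolved. Cxcl2 lost its bleomycin call without bleomycin control replicate 4 or PBS control replicate 1 or 3 (difference 0.25 to 0.28, adjusted p = 0.0542 to 0.129), with only the compared groups in the fit (0.33, adjusted p = 0.0629) and with the RNA integrity number as a covariate (0.24, adjusted p = 0.0684). Of 11 neutrophil markers 1 was higher and 4 lower with bleomycin, among them S100a8 at -0.72, and 2 were lower with each gapmer. Without bleomycin control replicate 3 limma called none of them lower with gapmer 1, and 4 had an unadjusted p under 0.05. The summed level of these markers was 16.90 to 16.92 in PBS controls, 16.55 to 16.72 in bleomycin controls, 16.44 to 16.74 with gapmer 1 and 16.58 to 16.76 with gapmer 3.

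The sequence before the start of these genes is shown because Cxcl1, Cxcl2 and Cxcl3 share a motif for NF-κB, the factor through which many injury signals switch on chemokine genes, and because Cxcl10 holds it beside a motif for interferon-regulated factors. The 250 bases before the annotated start, 5′ to 3′ on the gene's strand, are from RefSeq (GRCm38.p6), with Cxcl1 at chr5:90890995-90891244 (+), Cxcl2 at chr5:90903649-90903898 (+), Cxcl3 at chr5:90785851-90786100 (+) and Cxcl10 at chr5:92348890-92349139 (-). Capitals mark matches to the NF-κB motif and, in Cxcl10, to the core of the interferon-stimulated response element, which is GAAA, any 2 bases and GAAA again, both searched on both strands.
Cxcl1: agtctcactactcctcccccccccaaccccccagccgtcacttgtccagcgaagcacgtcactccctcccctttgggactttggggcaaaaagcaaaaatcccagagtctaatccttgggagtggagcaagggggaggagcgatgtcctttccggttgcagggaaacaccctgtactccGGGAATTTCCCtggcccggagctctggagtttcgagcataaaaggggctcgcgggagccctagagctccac
Cxcl2: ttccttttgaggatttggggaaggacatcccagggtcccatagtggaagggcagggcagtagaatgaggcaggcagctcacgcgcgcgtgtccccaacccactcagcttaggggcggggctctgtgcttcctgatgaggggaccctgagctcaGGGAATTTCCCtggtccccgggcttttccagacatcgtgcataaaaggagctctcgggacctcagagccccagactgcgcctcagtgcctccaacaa
Cxcl3: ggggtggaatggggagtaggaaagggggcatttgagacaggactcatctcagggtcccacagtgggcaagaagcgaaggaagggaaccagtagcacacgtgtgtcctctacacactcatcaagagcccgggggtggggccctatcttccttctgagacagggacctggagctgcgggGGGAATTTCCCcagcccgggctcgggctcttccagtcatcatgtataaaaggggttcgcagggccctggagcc
Cxcl10: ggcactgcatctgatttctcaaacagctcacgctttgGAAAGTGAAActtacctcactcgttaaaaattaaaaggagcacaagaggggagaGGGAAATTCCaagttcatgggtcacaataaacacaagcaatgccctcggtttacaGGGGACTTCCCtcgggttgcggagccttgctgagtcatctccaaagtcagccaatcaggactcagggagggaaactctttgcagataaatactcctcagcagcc
In Cxcl1, Cxcl2 and Cxcl3 the capitals are the same letters, in which matches on both strands overlap. In Cxcl10 the first run is the interferon motif and the other runs are NF-κB matches. Over all 32851 promoters of 27025 genes in the RefSeq table, 7.25% held the NF-κB motif and 2.98% the interferon motif in the same window. Promoters were available for only 40 member genes. Those of the other members, Ccl2 and Cxcl5 among them, were not searched, so whether they hold either motif is not known here. Of 44 promoters of the 40 member genes, 10 held the NF-κB motif (22.7%), including those of Ccl1, Ccl9, Ccl20, Ccr1, Ccr3 and Ccr6. The interferon motif stood in 3 (6.82%), those of Ccl19, Cxcl10 and Cxcl14. A match describes these letters only and says nothing of binding in these lungs.

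Cxcl9 and Cxcl10, which interferon induces and which draw T and NK cells through Cxcr3, rose with bleomycin and were lower with both gapmers. Cxcl10 read 8.27, 8.74 and 8.74 in PBS controls, 10.63, 10.76, 10.85, 11.04 and 11.16 in bleomycin controls, 9.31, 9.66, 9.75, 10.29 and 10.42 with gapmer 1 and 9.26, 9.34, 9.70, 9.86 and 10.03 with gapmer 3. All gapmer arrays of Cxcl10 lay below all bleomycin controls and above all PBS controls. Its rise was 2.30 (SE 0.32, limma adjusted p = 9.65e-06), and it fell by 1.00 and 1.25 (limma adjusted p = 0.0236 and 0.00431). Cxcl10 lost its gapmer 1 call without bleomycin control replicate 2 or 3 or gapmer 1 replicate 1, 2 or 3 (difference -0.97 to -0.86, adjusted p = 0.0532 to 0.0793) and on the dimmest feature (-0.10, adjusted p = 0.599). Cxcl10 lost its gapmer 3 call on the dimmest feature (-0.24, adjusted p = 0.0805). That feature had means of 5.67 and 6.04 in PBS and bleomycin controls, under 6.11.

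Cxcl9 read 6.88, 6.93 and 7.31 in PBS controls, 8.90, 9.19, 9.22, 9.41 and 9.48 in bleomycin controls, 7.40, 7.84, 7.98, 8.38 and 8.57 with gapmer 1 and 7.49, 7.53, 7.72, 7.96 and 8.55 with gapmer 3. In bleomycin mice no gapmer array of Cxcl9 reached the bleomycin controls, and the rise of 2.20 and the falls of 1.21 and 1.39 were called (limma adjusted p = 4.88e-05, 0.0139 and 0.00407). In PBS mice, gapmer 1 replicate 2 had the highest level of both genes, 9.28 for Cxcl9 and 10.38 for Cxcl10, against at most 7.41 and 8.98 on the other PBS arrays. Cxcl11, the third ligand of Cxcr3, read 16.96 ± 0.11 (SD, n = 3) in PBS controls and 16.90 ± 0.09 (SD, n = 5) in bleomycin controls. It was not called in any comparison, and the means of its second feature were 12.02 and 12.09. The brighter feature had a mean above those of 99.8% of all genes. Whether so high and even a level reports Cxcl11 RNA was not tested, so no abundance or lack of response of Cxcl11 is read from it.

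Lymphoid chemokines rose with bleomycin. Ccl19, which guides T cells and mature dendritic cells through Ccr7, read 8.53, 9.24 and 9.34 in PBS controls and 9.31, 10.71, 11.11, 11.16 and 11.24 in bleomycin controls, a rise of 1.67 (SE 0.40, limma adjusted p = 0.00221). Its levels were 7.98, 9.15, 9.62, 9.67 and 10.05 with gapmer 1 and 9.17, 9.47, 9.49, 9.51 and 9.72 with gapmer 3, lower by 1.41 and 1.23 (limma adjusted p = 0.0104 and 0.0195). Bleomycin control replicate 5 lay at 9.31, among the PBS and gapmer arrays, and the other 4 controls lay above all of them. Ccl19 lost its gapmer 1 call with only the compared groups in the fit (-1.41, adjusted p = 0.0758). Ccl19 lost its gapmer 3 call without bleomycin control replicate 1, 2 or 4 (difference -1.13 to -1.10, adjusted p = 0.0542 to 0.0651). The 3 features of Ccl19 rose by 0.81 to 1.67.

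Cxcl13, which forms B cell follicles through Cxcr5, read 8.71, 10.42 and 10.70 in PBS controls and 10.91, 11.20, 11.40, 11.45 and 11.69 in bleomycin controls. It rose by 1.39 (SE 0.46, limma adjusted p = 0.0221), and its differences of -1.11 and -1.14 with the gapmers did not pass (limma adjusted p = 0.0775 and 0.0606), although all 5 arrays of each lay below all bleomycin controls. Its SD in PBS controls, 1.08 (n = 3), was the widest of the 54 genes in that group. Cxcl13 lost its bleomycin call without PBS control replicate 1 (difference 0.77, adjusted p = 0.225). Cxcl13 passed in the gapmer 1 comparison without gapmer 1 replicate 4 (difference -1.26, adjusted p = 0.0471), with array weights (-1.33, adjusted p = 0.0184) and with only the compared groups in the fit (-1.11, adjusted p = 0.0352). Cxcl13 passed in the gapmer 3 comparison without gapmer 3 replicate 2 (difference -1.29, adjusted p = 0.0487), without dim genes (-1.14, adjusted p = 0.0485), with array weights (-1.37, adjusted p = 0.0047), with only the compared groups in the fit (-1.14, adjusted p = 0.00647) and with a replicate block (-1.14, adjusted p = 0.0468).

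T cell and B cell markers moved in the same directions, and NK cell markers did not. Of 11 T cell markers 9 rose with bleomycin and 9 fell with each gapmer, with Foxp3 at 1.38, -0.87 and -0.94, and their summed level was 12.34 to 12.72 in PBS controls, 13.14 to 13.85 in bleomycin controls, 12.53 to 12.76 with gapmer 1 and 12.34 to 12.67 with gapmer 3. The highest of these sums, 13.85, was that of bleomycin control replicate 3, with 13.14 to 13.57 on the other 4 control arrays, and without it 9 T cell markers rose and 8 fell with each gapmer. Of 10 B and plasma cell markers 6 rose and 9 fell with each gapmer, with summed levels of 14.14 to 14.41, 14.61 to 15.08, 14.12 to 14.37 and 13.72 to 14.41. Of 10 NK cell markers none rose and 7 fell with bleomycin (6 without bleomycin control replicate 3), and none was called with either gapmer. Their summed level was 13.68 to 14.08 in PBS controls and 12.65 to 13.28 in bleomycin controls. It was 12.53 to 13.35 with gapmer 1 and 12.81 to 13.18 with gapmer 3. Of 9 genes of lymph node stroma and high endothelial venules, Ccl19 and Cxcl13 among them, 7 rose and 1 fell with bleomycin, 5 were lower with each gapmer and 1 was higher with gapmer 1, which was lost without bleomycin control replicate 3. Glycam1, a ligand for lymphocyte homing made by these venules, differed by 3.30, -3.13 and -3.00. Their part in the lymphoid chemokine levels was not tested.

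Cxcl12, which holds stem cells and lymphocytes in place through Cxcr4, gave a different answer on each of its 2 features. The brighter feature, which stands for the gene here, read 14.02 ± 0.11 (SD, n = 3) in PBS controls, 13.96 ± 0.09 (SD, n = 5) in bleomycin controls, 14.03 ± 0.19 with gapmer 1 and 14.03 ± 0.32 with gapmer 3, and was not called. The dimmer feature, annotated to another Cxcl12 transcript, read 9.42, 9.65 and 9.81 in PBS controls and 11.47, 11.71, 11.80, 11.88 and 12.12 in bleomycin controls. On that feature the gapmer 1 arrays read 10.03, 10.22, 10.23, 10.98 and 11.15 and the gapmer 3 arrays 9.99, 10.35, 10.37, 10.50 and 10.64. The 4 groups ran in the order PBS control, gapmers, bleomycin control, with no gapmer array in either control range. With the dimmer feature in its place, Cxcl12 rose by 2.17 and fell by 1.28 and 1.42 (limma adjusted p = 6.74e-08, 9.91e-05 and 1.75e-05). With the mean of both features it rose by 1.06 and fell by 0.61 and 0.68. The dimmer feature was examined after its values were seen.

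**Figure D3:**
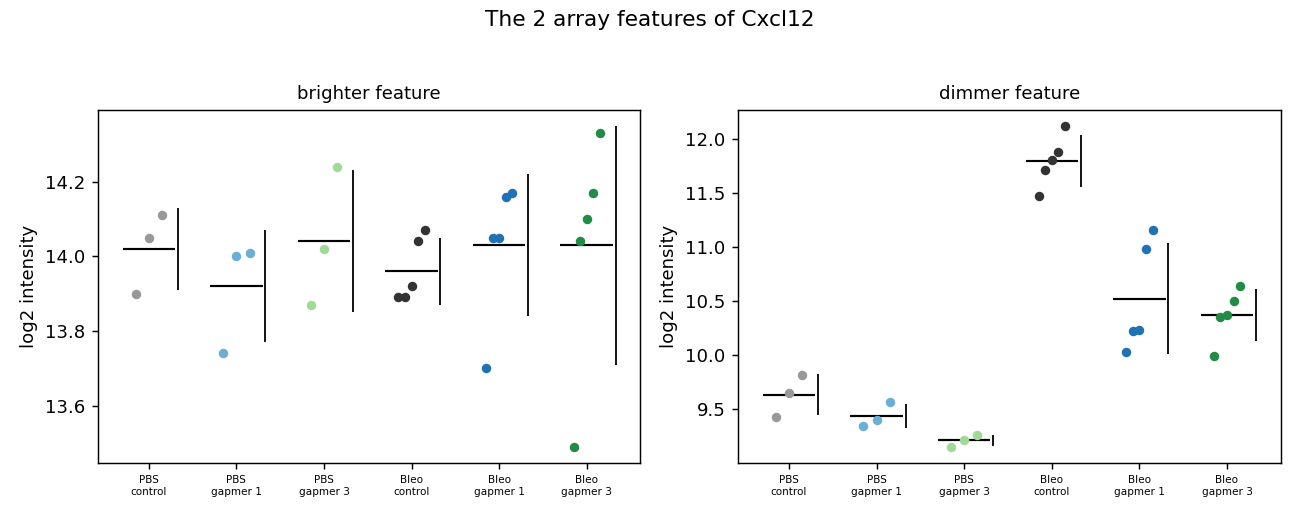
Log2 intensity (y axis) of the brighter (left) and the dimmer (right) array feature of Cxcl12 on each array, in the 6 groups along the x axis, with the group mean as a horizontal line and the SD as a vertical bar (n = 3 or 5). The brighter feature lies between 13.49 and 14.33 in every group, and the dimmer one is highest on the 5 bleomycin control arrays.

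Among 7 epithelial and mucosal ligands bleomycin raised Cxcl17, a mucosal chemokine, by 0.50 (limma adjusted p = 5.68e-05) and lowered Ccl27a, a ligand of Ccr10, by 0.75 (limma adjusted p = 0.000187). Cxcl17 passed in the gapmer 3 comparison with array weights (-0.18, adjusted p = 0.0197). Ccl27a read 10.31, 10.53 and 10.62 in PBS controls and 9.54, 9.60, 9.72, 9.74 and 10.07 in bleomycin controls, with no overlap, and its gapmer differences of 0.32 and 0.29 did not pass. Ccl27a lost its bleomycin call on the dimmest feature (-0.21, adjusted p = 0.0705). Ccl27a passed in the gapmer 1 comparison without bleomycin control replicate 5 or gapmer 1 replicate 4 (difference 0.41 to 0.44, adjusted p = 0.00778 to 0.0232) and with array weights (0.45, adjusted p = 0.00401). Ccl27a passed in the gapmer 3 comparison without bleomycin control replicate 5 (difference 0.37, adjusted p = 0.0381) and with array weights (0.33, adjusted p = 0.011).

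Cxcl15, called lungkine and made by mouse lung epithelium, was called only with gapmer 3, where it read 13.90, 14.18, 14.20, 14.23 and 14.29 against 13.10, 13.59, 13.60, 13.70 and 13.79 in bleomycin controls, a difference of 0.60 (limma adjusted p = 0.0478). Cxcl15 lost its gapmer 3 call without bleomycin control replicate 2, 3, 4 or 5 or gapmer 3 replicate 1, 3, 4 or 5 (difference 0.49 to 0.64, adjusted p = 0.0585 to 0.115), with a trended, robust variance (0.60, adjusted p = 0.0531) and when other genes took their dimmest feature, Cxcl15 having only 1 (0.60, adjusted p = 0.0529). Cxcl14, made by epithelium and fibroblasts, differed by -0.39 with gapmer 3 (limma adjusted p = 0.0144) and by -0.11 with gapmer 1. Cxcl14 passed in the bleomycin comparison without bleomycin control replicate 3 or PBS control replicate 1 (difference 0.34 to 0.39, adjusted p = 0.033 to 0.0411), without dim genes (0.30, adjusted p = 0.0471) and with the RNA integrity number as a covariate (0.34, adjusted p = 0.0478). The direct differences between the gapmers, 0.35 for Cxcl15 and -0.28 for Cxcl14, did not pass (limma adjusted p = 0.992 in both). Ccl20, the ligand of Ccr6, and Ccl28, a ligand of Ccr10, had means under 6.11 and were not called. Ccl25 was not called either: it read 8.83, 8.95, 9.05, 9.06 and 10.96 in bleomycin controls, the highest being replicate 3, and its difference from PBS controls was 0.17 with that array and -0.23 without it.

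The membrane-bound chemokines moved in opposite directions. Cx3cl1, or fractalkine, which endothelium and epithelium carry on their surface, fell from 12.22, 12.37 and 12.38 in PBS controls to 11.58, 11.60, 11.60, 11.60 and 11.69 in bleomycin controls (-0.71, SE 0.07, limma adjusted p = 6.46e-08). It stayed low with the gapmers, at 11.55, 11.60, 11.67, 11.72 and 11.84 and 11.65, 11.72, 11.78, 11.80 and 11.82, with differences of 0.06 (95% interval -0.06 to 0.18) and 0.14 (0.02 to 0.25). Cxcl16, which binds Cxcr6 on T cells, rose by 0.92 (limma adjusted p = 9.92e-08), and of its gapmer differences of -0.24 and -0.26 only the second was called (limma adjusted p = 0.0506 and 0.0293). Cxcl16 passed in the gapmer 1 comparison without bleomycin control replicate 3 or gapmer 1 replicate 4 (difference -0.28 to -0.27, adjusted p = 0.0205 to 0.04), with median centring (-0.24, adjusted p = 0.0494), when other genes took the mean of their features, Cxcl16 having only 1 (-0.24, adjusted p = 0.0476), without dim genes (-0.24, adjusted p = 0.0387), with a trended, robust variance (-0.24, adjusted p = 0.0467), with array weights (-0.27, adjusted p = 0.0118), with a replicate block (-0.24, adjusted p = 0.022) and with the position trend removed (-0.26, adjusted p = 0.0455). Cxcl16 lost its gapmer 3 call without bleomycin control replicate 1, 2 or 4 or gapmer 3 replicate 2 or 3 (difference -0.25 to -0.18, adjusted p = 0.0507 to 0.0993), with only the compared groups in the fit (-0.26, adjusted p = 0.0646) and with the position trend removed (-0.24, adjusted p = 0.0576). Xcl1, made by activated T and NK cells, was not called, and its highest bleomycin control array, at 8.21, was replicate 3.

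Of 10 CC receptors, 6 rose with bleomycin, 4 were lower with gapmer 1 and 3 with gapmer 3. Ccr6, the receptor of Ccl20 on B cells, dendritic cells and some helper T cells, moved most. It read 9.51, 9.73 and 9.79 in PBS controls, 10.86, 10.87, 11.00, 11.11 and 11.34 in bleomycin controls, 9.57, 9.58, 9.74, 9.93 and 10.02 with gapmer 1 and 9.26, 9.58, 9.72, 9.78 and 9.87 with gapmer 3. No gapmer array reached the bleomycin controls, and both gapmer groups overlapped the PBS controls. Ccr6 rose by 1.36 (SE 0.14, limma adjusted p = 2.58e-07) and fell by 1.27 and 1.39 (limma adjusted p = 9.22e-07 and 1.74e-07). Its ligand Ccl20 had levels of 5.38 to 5.77 on all arrays, under 6.11.

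Ccr7, which naive T cells and mature dendritic cells use to enter lymph nodes, read 11.77, 11.78 and 11.95 in PBS controls, 12.21, 12.41, 12.43, 12.51 and 12.66 in bleomycin controls, 11.49, 11.49, 11.57, 11.75 and 11.85 with gapmer 1 and 11.12, 11.53, 11.55, 11.58 and 11.59 with gapmer 3. All gapmer 3 arrays lay below all PBS controls, and the gapmer 1 arrays overlapped them from below. Ccr7 rose by 0.61 and fell by 0.82 and 0.97 (limma adjusted p = 0.000194, 1.68e-05 and 1.14e-06).

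Ccr2, the receptor of Ccl2 that marks inflammatory monocytes, read 9.14, 9.54 and 9.55 in PBS controls and 10.29, 10.32, 10.34, 10.54 and 10.54 in bleomycin controls, a rise of 1.00 (SE 0.18, limma adjusted p = 0.000159). With gapmer 1 it read 9.70, 9.77, 10.00, 10.18 and 10.50 and with gapmer 3 9.40, 10.06, 10.07, 10.17 and 10.24, and its differences of -0.37 (95% interval -0.70 to -0.05) and -0.42 (-0.74 to -0.09) did not pass (limma adjusted p = 0.14 and 0.0824). All gapmer 3 arrays of Ccr2 lay below all bleomycin controls, and 1 gapmer 1 array lay among them. Ccr2 passed in the gapmer 1 comparison without gapmer 1 replicate 4 (difference -0.49, adjusted p = 0.0296) and with array weights (-0.48, adjusted p = 0.0188).

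Ccr3, the eotaxin receptor, read 7.74, 7.85, 7.85, 7.89 and 8.06 in bleomycin controls, 6.65, 6.72, 7.03, 7.09 and 8.32 with gapmer 1 and 6.84, 7.07, 7.13, 7.41 and 7.61 with gapmer 3, against 7.38, 7.47 and 7.76 in PBS controls. It was called only with gapmer 1 (-0.72, limma adjusted p = 0.0429), while the gapmer 3 difference of -0.67 had a limma adjusted p of 0.0523. Gapmer 1 replicate 4, at 8.32, lay above every bleomycin control and the other 4 arrays of that group below them. Ccr3 lost its gapmer 1 call without bleomycin control replicate 1, 2, 3 or 4 or gapmer 1 replicate 1, 2, 3 or 5 (difference -0.72 to -0.59, adjusted p = 0.0735 to 0.128), with only the compared groups in the fit (-0.72, adjusted p = 0.13) and with the RNA integrity number as a covariate (-0.72, adjusted p = 0.0535). Ccr3 passed in the gapmer 3 comparison without gapmer 3 replicate 1 (difference -0.76, adjusted p = 0.0353), without dim genes (-0.67, adjusted p = 0.0417), with array weights (-0.66, adjusted p = 0.00274), with only the compared groups in the fit (-0.67, adjusted p = 0.00641), with a replicate block (-0.67, adjusted p = 0.0339) and with the position trend removed (-0.66, adjusted p = 0.0439). Ccr3 passed in the bleomycin comparison with only the compared groups in the fit (0.34, adjusted p = 0.0307).

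Ccr8, a receptor of regulatory T cells for Ccl1, read 6.02, 6.17 and 6.24 in PBS controls, 6.33, 6.43, 6.51, 6.66 and 6.69 in bleomycin controls, 5.88, 6.04, 6.06, 6.20 and 6.67 with gapmer 1 and 5.95, 6.11, 6.14, 6.19 and 6.22 with gapmer 3. Its differences were 0.38, -0.35 and -0.40 (limma adjusted p = 0.0276, 0.0465 and 0.0206), beside an SD of 0.30 (n = 5) with gapmer 1. Readings under 6.11 occurred in the PBS control and both gapmer groups, so these differences are not fully resolved. Ccr8 lost its bleomycin call without bleomycin control replicate 2 or 4 or PBS control replicate 1 or 2 (difference 0.32 to 0.39, adjusted p = 0.057 to 0.118), with the RNA integrity number as a covariate (0.32, adjusted p = 0.0805) and on the dimmest feature (0.25, adjusted p = 0.0658). Ccr8 lost its gapmer 1 call without bleomycin control replicate 1, 2, 3 or 4 or gapmer 1 replicate 1, 2, 3 or 5 (difference -0.38 to -0.28, adjusted p = 0.0601 to 0.146), with the mean of the features (-0.21, adjusted p = 0.0509), with only the compared groups in the fit (-0.35, adjusted p = 0.147), with the RNA integrity number as a covariate (-0.34, adjusted p = 0.0608) and on the dimmest feature (-0.07, adjusted p = 0.753). Ccr8 lost its gapmer 3 call without bleomycin control replicate 2 or 4 or gapmer 3 replicate 3 (difference -0.37 to -0.36, adjusted p = 0.0597 to 0.0676) and on the dimmest feature (-0.17, adjusted p = 0.251).

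Ccr4, the receptor of Ccl17, rose by 0.56 (limma adjusted p = 0.000407) from 5.58, 5.81 and 6.03 to 6.17, 6.24, 6.39, 6.47 and 6.56, and read 5.94, 6.08, 6.13, 6.24 and 6.30 with gapmer 1 and 6.03, 6.08, 6.19, 6.23 and 6.26 with gapmer 3, where its differences of -0.23 and -0.21 did not pass. Ccr4 passed in the gapmer 1 comparison with array weights (-0.27, adjusted p = 0.0498). The mean of Ccr4 over all arrays, 6.09, and all its PBS controls lay under 6.11, so its differences are not fully resolved. Ccr1, the receptor of Ccl3 and Ccl9 on monocytes and neutrophils, read 5.65, 5.74 and 5.99 in PBS controls and 5.77, 5.85, 5.90, 5.98 and 6.03 in bleomycin controls, under 6.11 throughout. Its levels were 5.58, 5.63, 5.82, 5.84 and 5.88 with gapmer 1 and 5.66, 5.67, 5.73, 5.75 and 5.80 with gapmer 3, and no comparison called it. Ccr1 passed in the gapmer 3 comparison with array weights (-0.18, adjusted p = 0.0382). Ccr1l1, a Ccr1-like gene, was called with bleomycin at 0.33 (limma adjusted p = 0.0233), again at levels near 6. Ccr1l1 lost its bleomycin call without bleomycin control replicate 2 or 3 or PBS control replicate 1 or 3 (difference 0.28 to 0.32, adjusted p = 0.06 to 0.0789), with only the compared groups in the fit (0.33, adjusted p = 0.0523) and with the RNA integrity number as a covariate (0.28, adjusted p = 0.0657). Ccr9, the receptor of Ccl25 on developing T cells, and Ccr10, a receptor of skin and mucosal lymphocytes, were not called. Ccr9 differed by 0.72 with bleomycin, and by 0.34 without bleomycin control replicate 3. Ccr9 passed in the bleomycin comparison without bleomycin control replicate 1, 4 or 5 (difference 0.81 to 0.82, adjusted p = 0.0453 to 0.0486), with the RNA integrity number as a covariate (1.02, adjusted p = 0.00299), with a replicate block (0.85, adjusted p = 0.0327) and with the position trend removed (0.81, adjusted p = 0.036). Ccr9 passed in the gapmer 1 comparison with the RNA integrity number as a covariate (-0.80, adjusted p = 0.0149). Ccr9 passed in the gapmer 3 comparison without bleomycin control replicate 5 (difference -0.83, adjusted p = 0.0445), without dim genes (-0.73, adjusted p = 0.0499), with array weights (-0.71, adjusted p = 0.0222) and with the RNA integrity number as a covariate (-0.83, adjusted p = 0.00912).

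**Figure D4:**
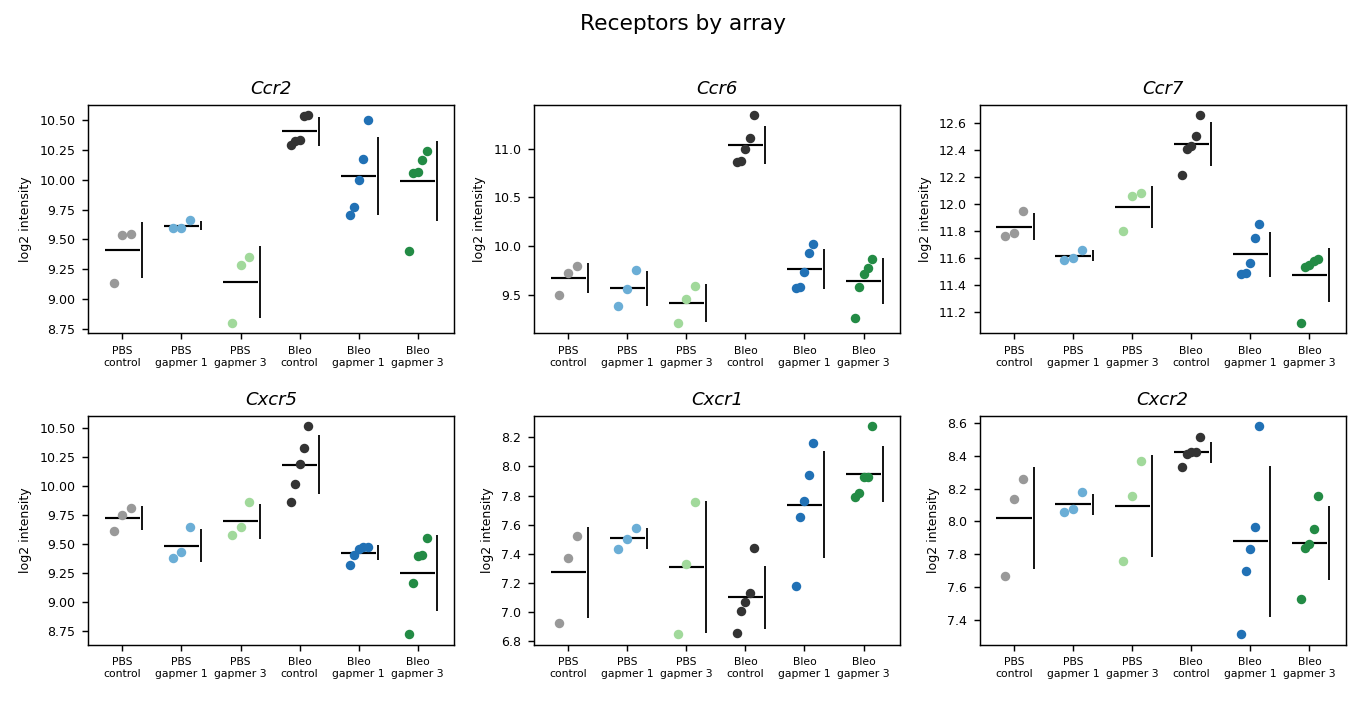
Log2 intensity (y axis) of 6 receptors on each array, in the 6 groups along the x axis, with the group mean as a horizontal line and the SD as a vertical bar (n = 3 for PBS and 5 for bleomycin groups). Ccr6 is highest on the 5 bleomycin control arrays, at 10.86 to 11.34, and Cxcr1 lies at 7.79 to 8.28 on the 5 bleomycin gapmer 3 arrays, above all PBS and bleomycin control arrays.

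Of 8 CXC, CX3C and XC receptors 5 rose with bleomycin, and 2 were lower and 1 higher with each gapmer. Cxcr1 and Cxcr2, the receptor pair for neutrophil attractants, went in opposite directions with the gapmers. Cxcr1 read 6.92, 7.37 and 7.52 in PBS controls, 6.86, 7.01, 7.07, 7.13 and 7.44 in bleomycin controls, 7.18, 7.65, 7.76, 7.94 and 8.16 with gapmer 1 and 7.79, 7.82, 7.93, 7.93 and 8.28 with gapmer 3. Every bleomycin and PBS control lay below all gapmer 3 arrays and below 4 of the 5 gapmer 1 arrays. It rose by 0.64 with gapmer 1 and 0.85 with gapmer 3 (limma adjusted p = 0.0187 and 0.00194), the only one of the 19 receptors called higher with a gapmer. Cxcr1 lost its gapmer 1 call without bleomycin control replicate 2 or gapmer 1 replicate 1 or 5 (difference 0.53 to 0.59, adjusted p = 0.0515 to 0.0667). Cxcr2 read 7.67, 8.14 and 8.26 in PBS controls, 8.33, 8.41, 8.43, 8.43 and 8.52 in bleomycin controls, 7.31, 7.70, 7.83, 7.97 and 8.58 with gapmer 1 and 7.53, 7.84, 7.86, 7.96 and 8.16 with gapmer 3. Its differences with the gapmers were -0.54 and -0.55 (limma adjusted p = 0.0428 and 0.0331), with 1 gapmer 1 array above every bleomycin control. Cxcr2 passed in the bleomycin comparison with only the compared groups in the fit (0.40, adjusted p = 0.032) and with a replicate block (0.52, adjusted p = 0.0366). Cxcr2 lost its gapmer 1 call without bleomycin control replicate 1, 2, 3 or 4 or gapmer 1 replicate 1, 2, 4 or 5 (difference -0.57 to -0.40, adjusted p = 0.0618 to 0.115), with array weights (-0.44, adjusted p = 0.0535) and with only the compared groups in the fit (-0.54, adjusted p = 0.101). Cxcr2 lost its gapmer 3 call without bleomycin control replicate 1, 2, 3 or 4 or gapmer 3 replicate 1, 3 or 5 (difference -0.56 to -0.47, adjusted p = 0.056 to 0.0954).

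Cxcr5, the follicular B cell receptor for Cxcl13, read 9.61, 9.75 and 9.81 in PBS controls, 9.86, 10.02, 10.19, 10.33 and 10.52 in bleomycin controls, 9.32, 9.41, 9.45, 9.47 and 9.48 with gapmer 1 and 8.72, 9.17, 9.40, 9.40 and 9.56 with gapmer 3. Each gapmer group lay wholly below the bleomycin and the PBS controls. Cxcr5 rose by 0.46 and fell by 0.76 and 0.93 (limma adjusted p = 0.0189, 0.00065 and 5.05e-05). Cxcr5 lost its bleomycin call without bleomycin control replicate 2 or PBS control replicate 1 (difference 0.38 to 0.40, adjusted p = 0.0551 to 0.0843).

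Cxcr3, the receptor for Cxcl9 and Cxcl10 on effector T and NK cells, read 8.40, 8.71 and 8.95 in PBS controls, 9.23, 9.30, 9.33, 9.36 and 9.44 in bleomycin controls, 9.03, 9.05, 9.06, 9.07 and 9.45 with gapmer 1 and 8.75, 8.88, 9.08, 9.14 and 9.19 with gapmer 3. It rose by 0.64 (limma adjusted p = 0.000393), and its gapmer differences of -0.20 and -0.32 did not pass (limma adjusted p = 0.3 and 0.0559). Cxcr3 passed in the gapmer 3 comparison without gapmer 3 replicate 4 (difference -0.37, adjusted p = 0.0442), without dim genes (-0.32, adjusted p = 0.0439), with array weights (-0.27, adjusted p = 0.0271), with only the compared groups in the fit (-0.32, adjusted p = 0.0298) and with the position trend removed (-0.32, adjusted p = 0.0497). Cx3cr1, the fractalkine receptor of monocytes and macrophages, rose by 0.89 (limma adjusted p = 0.000823), opposite to its ligand, with gapmer differences of -0.46 and -0.38 that did not pass. Cx3cr1 passed in the gapmer 1 comparison with array weights (-0.54, adjusted p = 0.0199) and with only the compared groups in the fit (-0.46, adjusted p = 0.00819). Xcr1, carried by cross-presenting dendritic cells, rose by 0.45, and Cxcr6, a receptor of tissue T cells, by 0.33 (limma adjusted p = 0.00237 and 0.0118). The mean of Xcr1 over all arrays was 6.04, and its PBS controls read at most 5.90, under 6.11, so its rise is not fully resolved. Cxcr6 lost its bleomycin call without PBS control replicate 1 or 2 (difference 0.29 to 0.31, adjusted p = 0.0517 to 0.059). Cxcr6 passed in the gapmer 3 comparison without gapmer 3 replicate 4 (difference -0.29, adjusted p = 0.0442), without dim genes (-0.25, adjusted p = 0.0463), with array weights (-0.20, adjusted p = 0.0462), with only the compared groups in the fit (-0.25, adjusted p = 0.0257) and with the RNA integrity number as a covariate (-0.26, adjusted p = 0.047). Cxcr4, the receptor of Cxcl12, read 8.98 ± 0.11 (SD, n = 3) in PBS controls and 8.78 ± 0.09 (SD, n = 5) in bleomycin controls and was not called in any comparison.

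Atypical receptors take up or present chemokines without moving the cell. Ackr3, which takes up Cxcl12, rose by 0.62 and fell by 0.43 and 0.40 (limma adjusted p = 0.00111, 0.0225 and 0.0292). Ackr3 lost its gapmer 1 call without bleomycin control replicate 2 or 4 or gapmer 1 replicate 2, 3 or 5 (difference -0.41 to -0.35, adjusted p = 0.058 to 0.0738) and with only the compared groups in the fit (-0.43, adjusted p = 0.107). Ackr3 lost its gapmer 3 call without bleomycin control replicate 2 or 4 or gapmer 3 replicate 1, 4 or 5 (difference -0.38 to -0.35, adjusted p = 0.0575 to 0.0862). Of the 3 genes given apart, Ackr1, which venular endothelium and red cells carry, read 6.47, 6.80 and 7.21 in PBS controls, 8.86, 8.95, 9.16, 9.38 and 9.56 in bleomycin controls, 7.37, 7.77, 7.94, 8.28 and 8.93 with gapmer 1 and 8.16 ± 0.16 (SD, n = 5) with gapmer 3. It rose by 2.36 and fell by 1.12 and 1.02 (limma adjusted p = 1.52e-07, 0.00117 and 0.00172). Ackr4, which removes Ccl19 and Ccl25, went the other way, from 9.73, 9.76 and 10.00 in PBS controls down to 7.45, 7.61, 7.73, 7.91 and 8.39 in bleomycin controls, with 7.98, 8.28, 8.81, 8.87 and 8.98 under gapmer 1 and 8.29, 8.41, 8.56, 8.69 and 8.69 under gapmer 3. Ackr4 fell by 2.01 with bleomycin and was higher by 0.77 and 0.71 with the gapmers (limma adjusted p = 1.52e-07, 0.00636 and 0.00817). Ackr4 lost its gapmer 1 call with only the compared groups in the fit (0.77, adjusted p = 0.0588) and on the dimmest feature (0.41, adjusted p = 0.0707). Ackr4 lost its gapmer 3 call on the dimmest feature (0.38, adjusted p = 0.0817). Ackr2, which degrades inflammatory CC chemokines, differed by -0.29, 0.15 and 0.22. Ackr2 lost its bleomycin call on the dimmest feature (-0.15, adjusted p = 0.226). Ackr2 passed in the gapmer 1 comparison without gapmer 1 replicate 5 (difference 0.18, adjusted p = 0.0496) and with array weights (0.17, adjusted p = 0.0406). Ackr2 lost its gapmer 3 call without bleomycin control replicate 1 or gapmer 3 replicate 1 (difference 0.18 to 0.20, adjusted p = 0.0524 to 0.0564), with the mean of the features (0.08, adjusted p = 0.421) and on the dimmest feature (-0.05, adjusted p = 0.743).

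Ligands were set beside their receptors in 38 known pairs, 36 of them with both genes measured, over 19 receptors and 30 ligands, so that pairs share genes and are not independent. Both genes were called with bleomycin in 13 pairs, 11 of them in the same direction, as in Ccl2 and Ccr2, Ccl17 and Ccr4, Ccl19 and Ccr7, and Cxcl13 and Cxcr5. In 13 pairs only the ligand was called, as for Cxcl5 and Cxcr2, and in 7 only the receptor, as for Ccl20 and Ccr6. In 3 pairs neither was called. The 2 pairs called in opposite directions were Cx3cl1 with Cx3cr1 and Ccl19 with Ackr4. With gapmer 1 both genes were called in 11 pairs, 9 of them in the same direction, and only the ligand in 10. With gapmer 3 both were called in 8 pairs, 6 of them in the same direction, and only the ligand in 13. The pairs called in opposite directions with each gapmer were Cxcl5 with Cxcr1 and Ccl19 with Ackr4. Without bleomycin control replicate 3 both genes were called in 3 pairs with gapmer 1, 1 of them in the same direction, and only the ligand in 17. With gapmer 3 both were then called in 5 pairs, 3 of them in the same direction, and only the ligand in 16. Both genes were still called with bleomycin in 13 pairs without that array. In Ccl2 and Ccr2 the ligand fell with both gapmers and the receptor difference did not pass, while in Ccl19 and Ccr7 both genes fell.

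Many chemokine genes lie in clusters, but the counts here are by chromosome and not by cluster. By the RefSeq table, used for chromosome names only, 14 members lie on chromosome 11, among them the genes of Ccl1 to Ccl9, Ccl11 and Ccl12, and 13 of these 14 rose with bleomycin. The 14 also include Cxcl16, Ccr7 and Ccr10, which lie away from the Ccl genes. On that chromosome 11 members were lower with gapmer 1 and 12 with gapmer 3. Over all genes on all chromosomes 14.5% were called higher with bleomycin, and 5.08% and 7.52% lower with the gapmers. Chromosome 5 holds 11 members, Cxcl5, Cxcl9 and Cxcl10 among them, of which 8 rose and 7 and 6 were lower with the gapmers. Chromosome 9 holds 11 receptors, of which 8 rose and 3 and 2 were lower. Leaving out bleomycin control replicate 3, the chromosome 11 counts were again 13, 11 and 12, those of chromosome 5 were 8, 6 and 6 and those of chromosome 9 were 7, 1 and 2.

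In PBS mice, with 3 arrays per group, few of these genes were called with the gapmers, as was so over all genes. A gene not called there is not shown to be unchanged. With gapmer 1 limma called Ccl6 higher and no other member, where 1.11% of all genes were called (0.444% higher and 0.666% lower), and 5 members had an unadjusted p under 0.05. All gapmer 1 arrays lay above the PBS controls for 5 members (8.62% of all genes) and below for 4 (13.7%). With gapmer 3 limma called none, where 0.0338% of all genes were called (0.00965% higher and 0.0241% lower), and 2 members had an unadjusted p under 0.05. All gapmer 3 arrays lay above for 1 member (4.23%) and below for 5 (8.34%). The response to bleomycin under each gapmer was then compared with that under the control gapmer. This difference was called in 15 members with gapmer 1, all below 0, where 7.7% of all genes were called, 4.97% higher and 2.74% lower. It was called in 9 members with gapmer 3, all below 0, where 3.09% of all genes were called, 1.45% higher and 1.64% lower. Cxcl5 differed by -2.11 and -1.88, Ccl8 by -1.45 and -1.55, Ccl2 by -1.71 in both and Ccr6 by -1.16 and -1.14. These counts moved with single arrays: leaving out bleomycin control replicate 1, 2 or 4, PBS control replicate 1 or 3, PBS gapmer 1 replicate 1 or 2, or bleomycin gapmer 1 replicate 2 or 3 left 5 to 9 members called for gapmer 1. Leaving out PBS control replicate 1 left 5 for gapmer 3. For gapmer 3, 6 remained without bleomycin control replicate 1, 2 or 4 or PBS control replicate 3. It was 6 as well without PBS gapmer 3 replicate 1, 2 or 3 or bleomycin gapmer 3 replicate 3 or 5. Without bleomycin control replicate 3 they were 14 and 8.

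Gapmer 3 and gapmer 1 were also set against each other in bleomycin mice. Limma called no member, 3 had an unadjusted p under 0.05, and 0% of all genes were called. The gapmer 3 arrays all lay below the gapmer 1 arrays for 1 member, Ccl8 (0.598% of all genes), and above for none (0.101%). Ccl8 also had the largest difference of the 54. Ccl24 differed by -0.51 (95% interval -0.97 to -0.06), Ccl2 by 0.00 (-0.58 to 0.58), Cxcl5 by 0.12 (-0.18 to 0.42) and Ccr6 by -0.13 (-0.38 to 0.13).

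Of 32 other genes of chemokine biology, such as signalling, scavenging and regulatory partners, 13 rose and 11 fell with bleomycin, 5 were higher and 9 lower with gapmer 1, and 4 higher and 9 lower with gapmer 3. Of these counts, those higher with bleomycin and lower with gapmer 1 were 12 and 8 without bleomycin control replicate 3, and the others were equal. Rgs16 and Rgs1, which shorten signalling from chemokine receptors, rose by 2.45 and 1.47 and fell by 0.69 and 0.58 with gapmer 1 and by 0.97 and 0.62 with gapmer 3. Dock2 and Rac2, which drive leukocyte movement, were lower by 0.46 and 0.62 with gapmer 1 and by 0.56 and 0.66 with gapmer 3. Ccrl2, which binds chemerin, fell by 1.16 with bleomycin and was higher by 0.39 and 0.46 with the gapmers. The platelet chemokines Ppbp and Pf4, named outside the rule, fell by 1.55 and 0.99 with bleomycin, and the summed level of 6 platelet markers was 14.86 to 15.08 in PBS controls and 13.66 to 14.17 in bleomycin controls.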

How the data were processed

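Values were the authors' deposited log2 intensities of 62976 features on 24 one-colour arrays, normalized before deposit with limma per the submitters' processing notes (version and settings not given in the sources used here). Array medians ran from 6.48 to 6.50, so no further normalization was done. Of the features, 31465 had 1 gene symbol in the platform annotation and 31511 none. Symbols were updated through RefSeq tables: of 20774, 18550 were current, 2003 were matched by accession, 217 by synonym, and 4 kept.

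limma 3.58.1 in R 4.3.3 was fitted to all 24 arrays with a mean per group (18 residual degrees of freedom), Benjamini-Hochberg adjustment over 20727 genes and a threshold of 0.05. Tables and figures used Python 3.11.15, pandas 2.3.3, NumPy 2.4.6, SciPy 1.17.1 and matplotlib 3.10.9. Summed levels of marker lists are log2 of summed linear intensities. On simulated data with 20727 genes, the bleomycin fit recovered 74.6% of 1.5-fold and 95.5% of 2-fold changes. The simulation drew normal noise and changed far fewer genes than were called here, so these rates need not hold for the real fit.

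Members and lists were chosen with earlier results of these data known. Values by array were fixed for the up to 12 called members with the largest difference in each bleomycin comparison and for their receptors. Values by array of other genes (Ccl6, Cxcl13, Cxcl15, Ccl25, Ccl27a, Cx3cl1, Cxcr5, Ackr1, Ackr4 and the Cxcl12 features) were added after they were seen. Alternatives were median centring, the mean of all features, no dim genes, array weights, a trended robust variance, a fit to the compared groups alone, RNA integrity as a covariate, a replicate block and each array left out. Removal of a position trend and the dimmest feature were added after seeing the data.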

Additional observations from a re-analysis of the deposited data

Results flagged for a closer look

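Dixon's gap test at its 95% critical value was applied to 171 groups of 5 arrays and marked 16, where chance marks about 1 in 20 groups. Bleomycin control replicate 3, which carried the thymocyte genes, was the highest of its group for Ccl25 (10.96, others at most 9.06), Ccr9 (10.09, others at most 8.25), Xcl1 (8.21, others at most 7.45) and Cxcr6 (10.23, others at most 10.03). Bleomycin gapmer 3 replicate 3 was the lowest of its group for Ccl2 (9.00, others at least 9.75), Ccl4 (8.06, others at least 8.69), Ccr2 (9.40, others at least 10.06) and Ccr7 (11.12, others at least 11.53), and the highest for Cxcr1 (8.28, others at most 7.93). Bleomycin gapmer 3 replicate 1 was the highest for Ccr10 (6.98) and the lowest for Cxcl11 (16.84). In bleomycin controls Ccl19 was lowest on replicate 5 (9.31, others at least 10.71) and Cx3cl1 highest on replicate 1 (11.69, others at most 11.60). With gapmer 1, Ccr3 was highest on replicate 4 (8.32, others at most 7.09), Cxcl12 lowest on replicate 5 (13.70) and Cxcr3 highest on the same replicate 5 (9.45).

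The response to bleomycin differed between gapmer 1 and the control gapmer by limma's interaction term (adjusted p under 0.05) in 15 of the 54 genes, which stand out for that reason. The differences in response were -2.11 for Cxcl5, -2.05 for Cxcl9, -1.71 for Ccl2, -1.52 for Cxcl10, -1.45 for Ccl8, -1.20 for Ccl7, -1.18 for Ccl1, -1.16 for Ccr6, -1.06 for Ccl9 and -0.96 for Cx3cr1. They were -0.92 for Ccl4, -0.83 for Ccl17, -0.67 for Ccl5, -0.60 for Ccr7 and -0.44 for Cxcl16. The values for Cxcl9 and Cxcl10 lean on PBS gapmer 1 replicate 2. That array read 9.28 and 10.38, against at most 7.41 and 8.98 on the other PBS arrays. Leaving it out left 6 of the 54 called. Among the genes given apart the difference was -1.16 for Ackr1, 0.45 for Ackr2 and 0.93 for Ackr4.

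For gapmer 3 the same term passed in 9 of the 54. The differences in response were -1.88 for Cxcl5, -1.71 for Ccl2, -1.55 for Ccl8, -1.20 for Ccl1, -1.14 for Ccr6, -1.12 for Ccr7, -0.92 for Ccl17, -0.91 for Ccl5 and -0.91 for Cxcr5. It was 0.38 for Ackr2 and 1.03 for Ackr4.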

How the results depend on the processing

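The 3 counts of members called in bleomycin mice stayed within 1.5 times their values under every setting, leaving out an array included. Leaving out each array in turn gave 30 to 38 for bleomycin, 18 to 30 for gapmer 1, 20 to 29 for gapmer 3, 5 to 22 and 5 to 12 for the difference in response with gapmers 1 and 3, 0 to 1 for gapmer 1 in PBS mice, and 0 throughout for gapmer 3 in PBS mice and for gapmer 3 against gapmer 1. The Ccl6 call in PBS mice was lost without PBS control replicate 1 or 3 or PBS gapmer 1 replicate 1 or 3. For gapmer 1 in PBS mice array weights gave 2 members called, the RNA integrity number as a covariate 2, and a fit of only the groups compared 0. For the difference in response with gapmer 3 they gave 16, 5 and 16. The cause was not tested. Cxcl12 turned direction with its features: with their mean the differences were 1.06, -0.61 and -0.68, and on the dimmer feature 2.17, -1.28 and -1.42, for bleomycin, gapmer 1 and gapmer 3. On its dimmer feature Ackr2 differed by -0.05 with gapmer 3. With the replicate number as a block the counts were 39, 28 and 30 for bleomycin, gapmer 1 and gapmer 3, 1 and 0 in PBS mice, 16 and 12 for the differences in response and 0 between the gapmers. Every same-numbered pair of arrays had a correlation of its deviations over 0.1 in 1 of 6 comparisons, gapmer 1 in PBS mice (0.103 to 0.189), where the block called the same 1 member, Ccl6. The other 5 had a pair below that, with correlations from -0.239 to 0.420 for gapmer 1 in bleomycin mice. Over 57 genes, 134 of 1596 values with 1 array left out changed their call. Levels under 6.11, where 10 members lie, are not resolved, and the median half-width of the 95% interval in the bleomycin comparison was 0.211.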
